A study of Mus musculus with 28 samples.

Results

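Cytochrome P450 enzymes of the Cyp2a, Cyp2c, Cyp2d, Cyp2e, Cyp2f, Cyp2g, Cyp2j, Cyp2u and Cyp3a subfamilies were followed in mouse liver across 5 diets. The genes were taken by name: every non-control probe of the array whose gene name began with one of these subfamily names and a number was a member, and the Cyp2b genes were left out. That gave 54 probes for 37 genes, and the probe with the highest mean over the 28 livers stood for its gene. Of the 37 genes, 36 passed the filter on dim probes (well above background on at least 5 arrays) and were tested among 21851 genes in all. Cyp2c65 was well above background on 2 arrays and was not tested. The tested genes were 4 Cyp2a, 10 Cyp2c, 7 Cyp2d, 5 Cyp2j and 6 Cyp3a genes, and 1 each of Cyp2e, Cyp2f, Cyp2g and Cyp2u.

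These enzymes sit in the endoplasmic reticulum, take electrons from P450 oxidoreductase, and oxidise drugs, plant compounds, steroids, bile acids and polyunsaturated fatty acids. The nuclear receptors CAR (Nr1i3) and PXR (Nr1i2) induce several of them in response to foreign compounds. In mouse liver some members are kept at different levels in males and females by the pattern of growth hormone release, and many are made mostly by the hepatocytes around the central vein.

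The livers came from male C57/6J mice that were 7 weeks old at the start, ate their diet for 26 weeks and were 33 weeks old at the end. The HQ group (n = 5) ate a high-fat diet with 0.4% quercetin (4 g per kg of diet), the HR group (n = 6) the high-fat diet with 0.4% resveratrol (4 g per kg), and the HQR group (n = 6) the high-fat diet with 0.2% of each (2 g per kg of each). The HFD group (n = 6) ate the high-fat diet alone and the SD group (n = 5) a standard diet. Quercetin is a plant flavonol and resveratrol a plant stilbene. Each array held the RNA of 1 mouse, and liver RNA with obvious degradation had been left out by the submitters. A level below is the log2 of the processed signal intensity minus the array's own 75th percentile, so a level of 0 is a spot as bright as that percentile and a difference of 1 is a 2-fold difference. Levels of different genes come from different probes and are not set against each other.

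Between 59.3% and 82.1% of the probes on an array were well above background, with the highest shares for 1 HR, 1 HQR and 1 HFD liver that shared slide 8, and no spot was saturated. All 11 tested hepatocyte markers were well above background on 28 of 28 arrays. Of the 6 tested pancreatic acinar markers, which would mark adjoining tissue, the lipase Pnlip was well above background on 5 of 28 arrays, Cpa1 on 16 and Cela1 on 17, and the other 3 on all 28. Their mean level was -0.47 in the highest HQ liver, with an HQ median of -2.76. The highest HR, HQR, HFD and SD livers were at -2.01, -1.74, -1.78 and -2.17. For 7 adipocyte markers the highest HR liver was at 1.65, with an HR median of 0.17. The highest HQ, HQR, HFD and SD livers were at 0.53, 0.29, 0.46 and 0.10. The part of adjoining tissue in the P450 levels was not tested. In RNA from whole liver, fewer cells of a type and less RNA per cell cannot be told apart.

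Genes of these subfamilies are close copies of each other, so the sequences of the probes bear on how far a value belongs to 1 gene. Of the 37 probes that stood for a gene, 7 carry accessions of another gene as well, and 23 genes had a single probe. The probe of Cyp2c54, the member with the lowest p in HFD against SD below, spans an intron on chromosome 19 of build mm9 (chr19:40122119-40144700, minus strand). The second probes of Cyp2c40 (chr19:39861388-39877026, minus strand) and Cyp2c38 (chr19:39479273-39510583, minus strand) span an intron as well. The 3 probes are shown because each has its longest run in common with another of them, and capitals mark the longest run that each shares with a probe of another member:
Cyp2c54: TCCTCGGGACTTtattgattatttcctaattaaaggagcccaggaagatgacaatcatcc
Cyp2c40: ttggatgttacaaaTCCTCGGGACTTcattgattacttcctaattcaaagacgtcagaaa
Cyp2c38: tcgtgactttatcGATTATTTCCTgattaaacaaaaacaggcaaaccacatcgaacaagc
The run shared by Cyp2c54 and Cyp2c40 is 12 bases long and the one shared by Cyp2c38 and Cyp2c54 is 11 bases long. The accessions listed for the Cyp2c54 probe name no other gene.

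The longest run shared by any probes of different members was 28 bases long, between a second Cyp2a4 probe (chr7:27099972-27100031, plus strand) and the Cyp2a5 probe (chr7:27628169-27628228, plus strand), and it is shown because these genes are read together below:
Cyp2a4 and Cyp2a5: GTAGACTTGCAGAGGATATTTCAAAGGT
All 3 Cyp2a4 probes list Cyp2a5 among their accessions, so the levels of these genes may contain signal from each other. The same holds for Cyp2c40 (Cyp2c67, Cyp2c68 and Cyp2c69), Cyp2d9 (Cyp2d11 and Cyp2d22), Cyp2j13 (Cyp2j12), Cyp3a11 (Cyp3a41a, Cyp3a41b and Cyp3a44), Cyp3a25 (Cyp3a59) and Cyp3a41a (Cyp3a41b), whose values are uncertain in that sense.

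No member passed an adjusted p of 0.05 in any of the 10 comparisons between groups (limma, Benjamini-Hochberg over all 21851 genes). The first comparison asks what the high-fat diet alone did: in HFD against SD livers 0 of 36 members passed, against 0.114% of all genes, and 2 of 36 had an unadjusted p under 0.05, against 6.14% of all genes, both below 0, as 2.8% of all genes were. The lowest-p member in that comparison was Cyp2c54, an arachidonic acid epoxygenase.

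**Figure D1:**
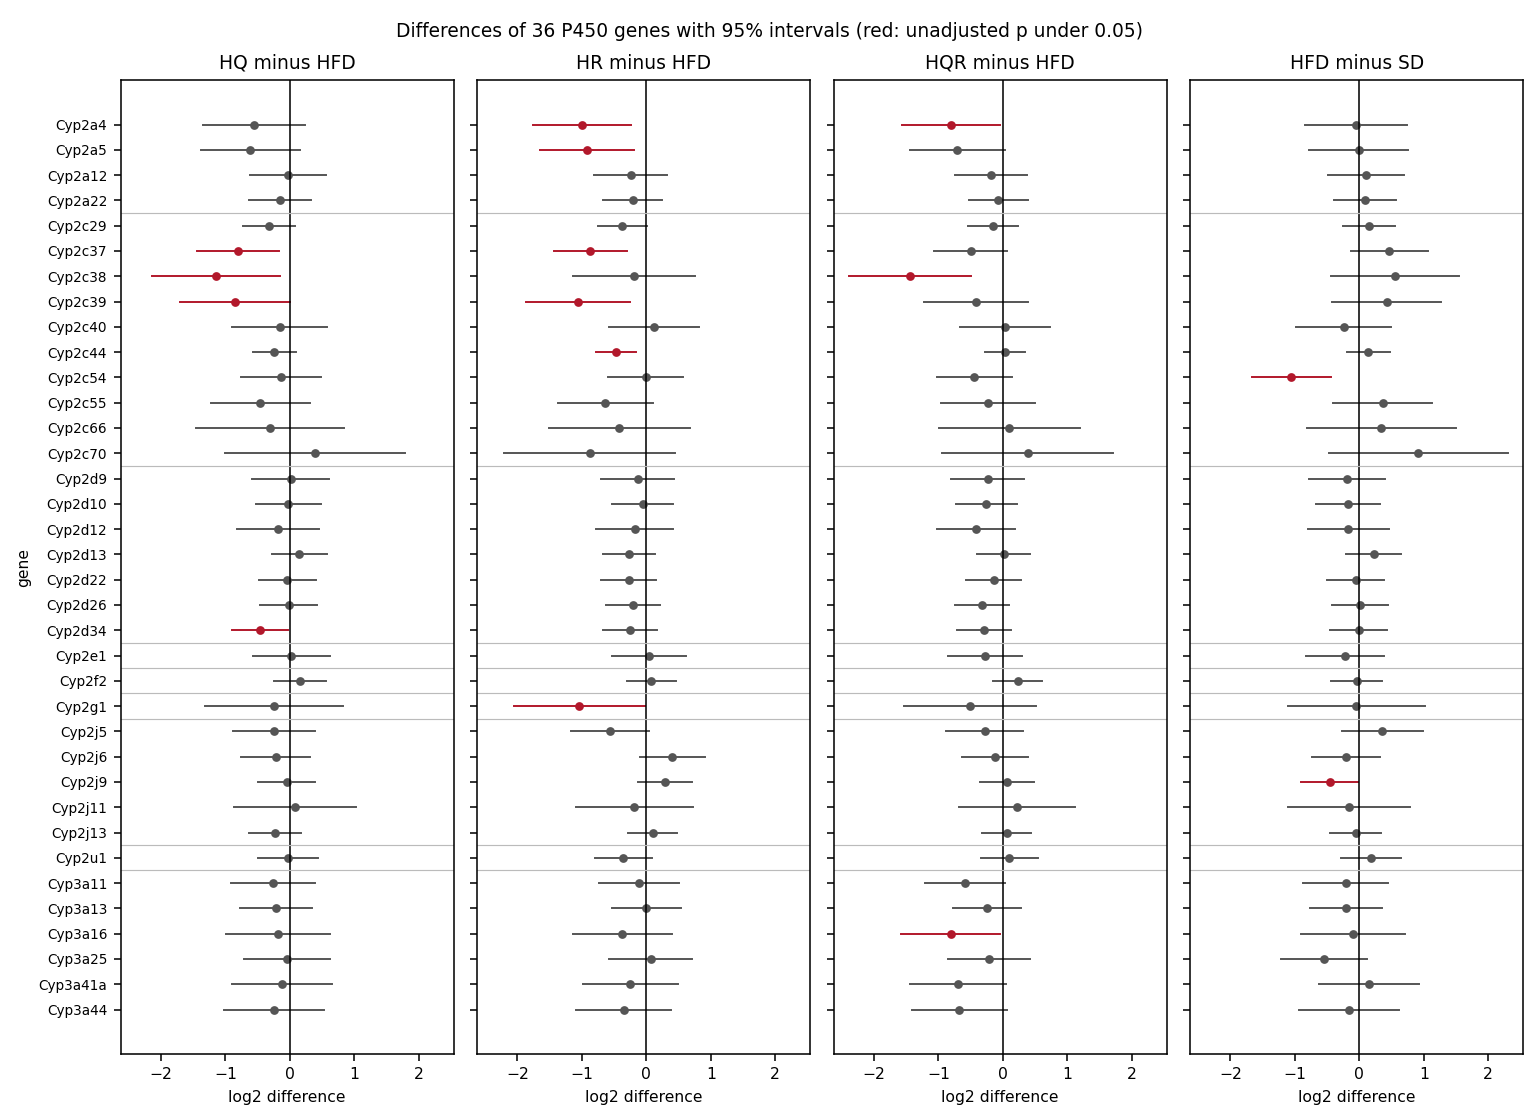
Log2 differences (horizontal axis) of the 36 tested genes (rows, by subfamily) in 4 comparisons, as points with 95% intervals from the limma fit; red marks an unadjusted p under 0.05. Most points of the 3 panels on the left lie below 0 (30, 28 and 26 of 36 genes for HQ, HR and HQR minus HFD), and Cyp2c54 stands lowest in HFD minus SD at -1.05.

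Cyp2c54 had its highest levels on the standard diet. In HQ livers it measured 2.03, 2.07, 2.50, 1.93 and 1.41, in HR livers between 1.19 and 2.99 with a median of 2.21, in HQR livers between 1.08 and 2.48 with a median of 1.67, and in HFD livers between 1.52 and 2.50 with a median of 2.20. In SD livers it measured 2.56, 3.87, 3.06, 3.08 and 3.33. Every HQ, HQR and HFD liver was below every SD liver, while 1 SD liver lay close to the top of those groups and the HR livers overlapped the SD range. Ranges lying wholly below those of SD livers were found in 0.737% of all genes for HFD, 0.229% for HQ and 0.435% for HQR, and Cyp2c54 was the only one of the 36 members in each.

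The Cyp2c54 level averaged 1.99 ± 0.39 in HQ, 2.11 ± 0.68 in HR, 1.68 ± 0.53 in HQR, 2.12 ± 0.35 in HFD and 3.18 ± 0.475 in SD livers (SD, n = 5, 6, 6, 6 and 5). The difference was -1.05 ± 0.30 for HFD minus SD (SE; adjusted p = 0.326), a level 2.08-fold lower. For HQ minus SD it was -1.19 ± 0.31 (adjusted p = 0.472), and for HR minus SD -1.07 ± 0.30 (adjusted p = 0.302). For HQR minus SD it was -1.50 ± 0.30, or 2.82-fold lower, with an adjusted p of 0.0523, just outside the threshold. These 4 differences share the SD arrays, and 0 of 36 members passed in HQ, HR and HQR against SD, where 0.0366%, 0.0549% and 0.0503% of all genes did. An unadjusted p under 0.05 was met by 3 of 36 members in HQ against SD (3.91% of all genes) and by 4 of 36 in HR against SD (5.72%). All of these members had lower levels than in SD livers. With 1 array left out, those with lower levels numbered between 1, without SD replicate 2, and 5, without HQ replicate 3, in HQ. In HR they numbered between 2, without HR replicate 4, and 5. Without SD replicate 2 or HQ replicate 3, 1 more member met that p in HQ with a higher level. The F test over the 5 groups gave Cyp2c54 an adjusted p of 0.282, and 0 of 36 members passed it, against 0.105% of all genes.

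The HQR minus SD difference of Cyp2c54 passed the threshold when either of 2 single arrays was left out, with an adjusted p of 0.0227 without HQR replicate 1 and 0.0243 without SD replicate 1, and over all 11 such omissions its adjusted p ran up to 0.169. With slide as a block the difference was -1.22 (adjusted p = 0.0593), and within the 3 slides that held both groups it lay between -1.83 and -0.08. The HFD minus SD difference was below 0 on each of the 4 slides that held both groups, between -1.37 and -0.20. Markers of hepatocytes and of their central vein and portal zones mostly had differences below 0 from SD as well. In these comparisons 58% of all genes in HQ, 57.3% in HR, 48.8% in HQR and 55.4% in HFD were below 0. Of 11 hepatocyte markers, 10 were below SD in HQ, 11 in HR, 9 in HQR and 8 in HFD livers, with medians of -0.41, -0.41, -0.32 and -0.42, and of 13 genes of the central vein zone, none of them a member, 11, 13, 11 and 10 were, with medians of -0.46, -0.69, -0.81 and -0.35. An unadjusted p under 0.05 with a lower level was met by 1, 3, 4 and 3 of the hepatocyte markers and by 3, 7, 6 and 1 of the central vein genes in HQ, HR, HQR and HFD against SD, where 2%, 2.81%, 3.37% and 2.8% of all genes met it. The mean level of the hepatocyte markers lay between 5.30 and 5.82 in HQ, 5.35 and 5.69 in HR, 5.26 and 5.70 in HQR, 5.33 and 5.97 in HFD, and 5.52 and 6.40 in SD livers. Of 12 genes of the portal zone, 12, 10, 10 and 11 were below SD in HQ, HR, HQR and HFD livers. Their medians were -0.43, -0.36, -0.35 and -0.27, and 2, 1, 1 and 1 had an unadjusted p under 0.05 with a lower level. None of these markers passed the adjusted p, and their part in the lower Cyp2c54 and Cyp3a levels was not tested.

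**Figure D2:**
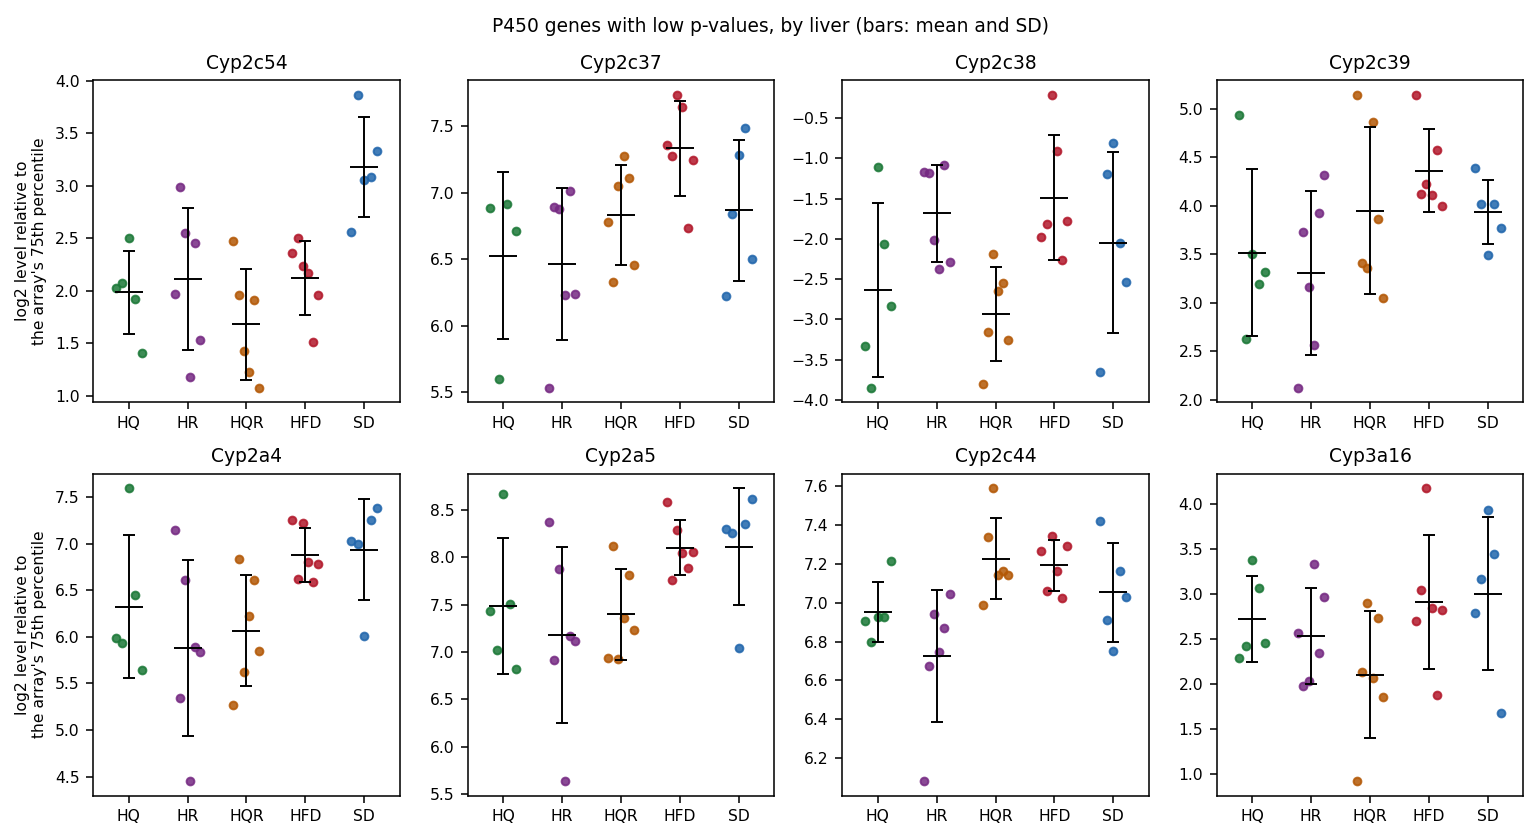
Level of 8 genes (vertical axis, log2 relative to the array's 75th percentile; each panel has its own scale) in each liver, by diet group; bars give the mean and SD. The SD livers of Cyp2c54 start at 2.56, above every HQ, HQR and HFD liver, while the groups overlap for the other 7 genes.

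Of the 10 tested Cyp2c genes, 8 had differences above 0 for HFD minus SD, with a median of 0.35 over the 10 genes. Outside the Cyp2c group, Cyp2j9, which oxidises arachidonic acid, had the other unadjusted p under 0.05. It lay between 4.31 and 5.05 in HFD livers, with a median of 4.49, against 5.03, 5.27, 5.01, 5.06 and 4.94 in SD livers, a difference of -0.46 ± 0.22 (SE; adjusted p = 0.794) that had an unadjusted limma p over 0.05 in 8 of the 11 omissions of 1 array, with the highest, 0.0929, without SD replicate 2. Of the next members by p, Cyp2c37 differed by 0.47 ± 0.29, Cyp2c70 by 0.92 ± 0.68 and Cyp3a25, a Cyp3a of adult liver, by -0.55 ± 0.33 (SE; limma adjusted p = 0.918, 0.958 and 0.901), and the Cyp2c70 difference was 0.48 without SD replicate 2. Over all 36 members the median difference for HFD minus SD was -0.04, the same as over all genes, and 21 of 36 were below 0, against 55.4% of all genes.

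The next comparisons ask what each supplement did to livers already on the high-fat diet. They share the 6 HFD arrays, so their values are given side by side and not as support for each other. No member passed the adjusted p in HQ against HFD (0% of all genes passed), in HR against HFD (0.00915%) or in HQR against HFD (0%). More members than not were lower than in HFD livers. In HQ livers 30 of 36 members had a difference below 0, where 50.9% of all genes did. In HR livers the count was 28 of 36, where 47.9% of all genes were below 0. In HQR livers it was 26 of 36, where 41.6% of all genes were. The members' median difference was -0.19 for HQ, -0.25 for HR and -0.24 for HQR, against -0.005, 0.01 and 0.05 over all genes. An unadjusted p under 0.05 was met by 4 of 36 members in HQ (2.13% of all genes), 6 of 36 in HR (4.92%) and 3 of 36 in HQR (1.36%), all with differences below 0, as 1.35%, 3.03% and 0.879% of all genes had with that sign. With 1 array left out the count for HQ was 0 without HQ replicate 2, 1 without HFD replicate 3 and 2 without HFD replicate 1, 2, 4 or 5, that for HR ran between 4 and 7, and that for HQR was 1 without HFD replicate 3 or HQR replicate 6, 2 without HFD replicate 1, 2 or 4 or HQR replicate 1 or 4, 6 without HQR replicate 5 and 7 without HFD replicate 5. Members of 1 subfamily sit side by side in the genome and may cross-hybridise, so these counts are not of independent genes.

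Among the members behind those counts were the Cyp2c genes of fatty acid and retinoid oxidation. Cyp2c37, which oxidises arachidonic acid, measured 6.89, 5.60, 6.91 and 6.71 in HQ livers (the spot of HQ replicate 5 was flagged as an outlier and left out). It lay between 5.54 and 7.01 with a median of 6.56 in HR livers and between 6.33 and 7.27 with a median of 6.91 in HQR livers. In HFD livers it lay between 6.73 and 7.73 with a median of 7.32. The supplemented ranges overlapped the HFD range. Its difference was -0.80 ± 0.31 for HQ minus HFD (SE; adjusted p = 1), and -0.87 ± 0.28 for HR minus HFD (adjusted p = 0.741). Within the 4 slides that held both HR and HFD arrays the Cyp2c37 difference lay between -1.50 and -0.39. The HQ minus HFD difference of Cyp2c37 was -0.50 without HQ replicate 2, with its unadjusted p then over 0.05. The second Cyp2c37 probe, which also lists Cyp2c50, gave -0.39 for HQ and -0.48 for HR, each minus HFD.

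Cyp2c39, which hydroxylates retinoic acid in mouse liver, measured 4.94, 2.62, 3.51, 3.20 and 3.31 in HQ livers, between 2.12 and 4.32 with a median of 3.45 in HR livers, between 3.05 and 5.14 with a median of 3.63 in HQR livers, and between 4.00 and 5.15 with a median of 4.18 in HFD livers. Its HR livers reached down to well under the HFD range, and the 2 ranges still met. The difference was -0.85 ± 0.41 for HQ minus HFD (adjusted p = 1) and -1.06 ± 0.39 for HR minus HFD (adjusted p = 0.927). With slide as a block the HR minus HFD difference of Cyp2c39 was -0.73.

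Cyp2c38, a dim member well above background on 26 of 28 arrays, measured -3.34, -3.85, -1.11, -2.06 and -2.84 in HQ livers, between -2.37 and -1.08 with a median of -1.60 in HR livers, between -3.80 and -2.19 with a median of -2.90 in HQR livers, and between -2.27 and -0.21 with a median of -1.79 in HFD livers. The HQR livers lay almost wholly below the HFD livers. The difference was -1.15 ± 0.48 for HQ minus HFD (adjusted p = 1) and -1.44 ± 0.46 for HQR minus HFD (adjusted p = 0.987). With normexp background correction these differences were -0.32 and -0.73. The HQ minus HFD difference ran between -1.64, with slide as a block, and -0.32 over the settings tried. The second Cyp2c38 probe, whose sequence is shown above, gave -0.58 and -0.80 for the same differences.

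Cyp2c44, an epoxygenase, which RefSeq now names Cyp2c23, varied little within groups. It lay between 6.08 and 7.04 in HR livers, with a median of 6.81, against 7.02 to 7.35 in HFD livers, with a median of 7.21. The HR minus HFD difference was -0.47 ± 0.15 (adjusted p = 0.762), and -0.34 without HR replicate 1, the liver with the lowest value. Cyp2c70, which makes muricholic acids from bile acids in mice, varied most from liver to liver among the tested members, with an SD over the 28 livers of 1.24. It measured 7.33, 5.40, 3.90, 6.74 and 6.18 in HQ livers, between 1.63 and 6.22 with a median of 5.38 in HR livers, between 4.50 and 6.94 with a median of 6.39 in HQR livers, and between 4.90 and 6.19 with a median of 5.52 in HFD livers. In SD livers it measured 5.00, 2.85, 5.08, 5.01 and 5.09, and the ranges of all groups overlapped. The Cyp2c70 difference from SD, singled out after its values were seen, was 1.31 ± 0.71 in HQ (adjusted p = 1) and 1.30 ± 0.68 in HQR livers (adjusted p = 0.821), the opposite sign to Cyp2c54. With slide as a block these were 2.22 (adjusted p = 0.291) and 1.79 (adjusted p = 0.254), and without SD replicate 2 they were 0.87 and 0.86. Cyp2c29, Cyp2c40 and Cyp2c55 averaged 5.59, 6.46 and -2.29 in HQ, 5.53, 6.74 and -2.47 in HR, 5.75, 6.65 and -2.07 in HQR, and 5.91, 6.62 and -1.83 in HFD livers. Cyp2c66, the dimmest tested member of the subfamily, was well above background on 8 of 28 arrays and averaged -4.77 in HQ, -4.88 in HR, -4.37 in HQR and -4.47 in HFD livers.

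In the Cyp2a subfamily all 4 genes were below HFD in each of the supplemented groups, with medians of -0.36 in HQ, -0.58 in HR and -0.45 in HQR. Cyp2a5 is the coumarin 7-hydroxylase of mouse liver and Cyp2a4 hydroxylates testosterone and is known as female-biased. Cyp2a4 measured 5.98, 5.94, 7.59, 6.44 and 5.64 in HQ livers, between 4.45 and 7.15 with a median of 5.86 in HR livers, between 5.27 and 6.83 with a median of 6.04 in HQR livers, and between 6.58 and 7.25 with a median of 6.79 in HFD livers. Cyp2a5 measured 7.43, 7.03, 8.67, 7.51 and 6.82 in HQ livers, between 5.64 and 8.37 with a median of 7.15 in HR livers, between 6.93 and 8.12 with a median of 7.29 in HQR livers, and between 7.76 and 8.58 with a median of 8.05 in HFD livers. For both genes the HFD livers formed a narrow band and the supplemented livers spread far below it, with at least 1 liver of each supplemented group inside or above the band.

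The Cyp2a4 difference was -0.999 ± 0.369 for HR minus HFD (adjusted p = 0.919) and -0.81 ± 0.37 for HQR minus HFD (adjusted p = 0.987). All 3 Cyp2a4 probes gave like values, between -1.184 and -0.999 for HR and between -1.20 and -0.74 for HQR. The Cyp2a5 difference was -0.92 ± 0.36 for HR minus HFD (adjusted p = 0.944). For HQ minus HFD the differences were -0.56 for Cyp2a4 and -0.61 for Cyp2a5. With slide as a block the Cyp2a4 and Cyp2a5 differences from HFD were -1.16 and -1.17 in HQ, -1.13 and -0.97 in HR, and -1.03 and -0.91 in HQR livers. The order of the 3 supplements thus depended on the slide term, and only 2 slides held both HQ and HFD arrays. HR replicate 4 was the lowest of its group for both genes, and without it the HR minus HFD difference of Cyp2a4 was -0.71 and that of Cyp2a5 -0.61, with neither unadjusted p under 0.05. Against SD, Cyp2a4 differed by -1.05 ± 0.39 in HR (adjusted p = 0.578) and by -0.86 ± 0.39 in HQR livers (adjusted p = 0.733). Cyp2a12, which oxidises bile acids and testosterone, averaged 4.57, 4.35 and 4.41 in HQ, HR and HQR livers, against 4.60 in HFD livers. Cyp2a22 averaged 1.101, 1.04 and 1.18 in HQ, HR and HQR livers, against 1.25 in HFD livers.

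**Figure D3:**
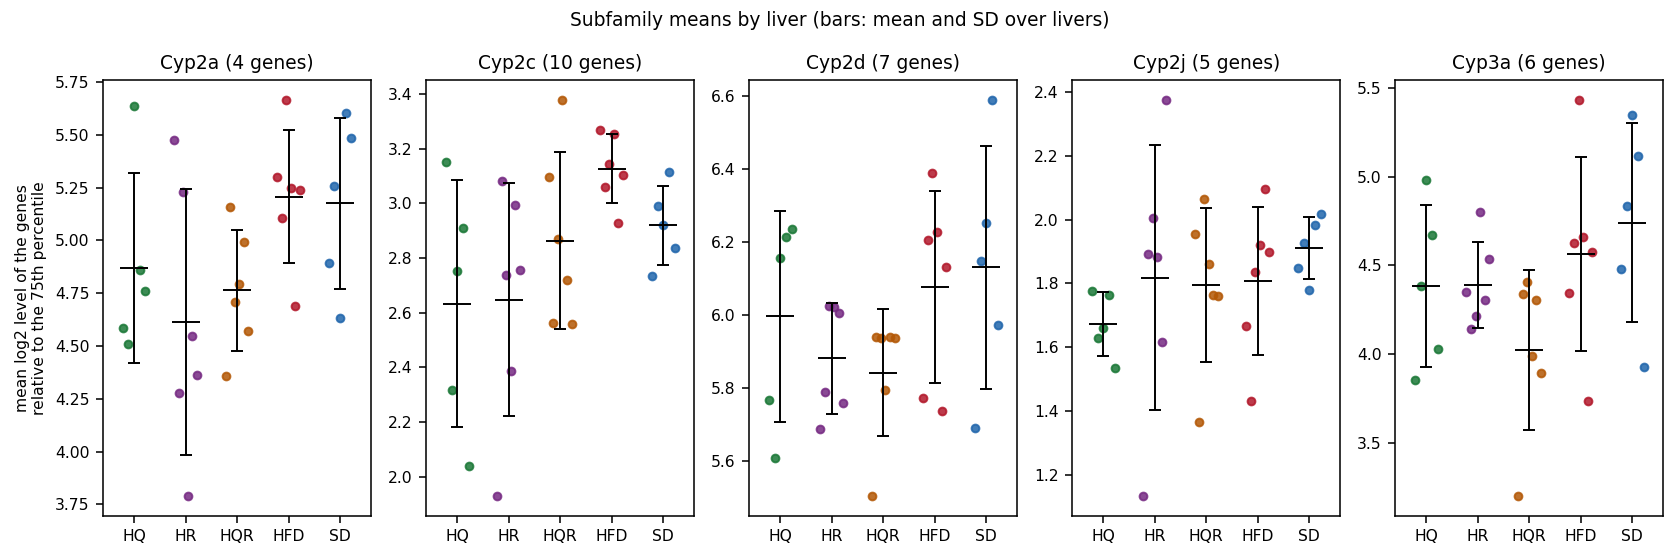
Mean level over the tested genes of the Cyp2a, Cyp2c, Cyp2d, Cyp2j and Cyp3a subfamilies (vertical axis, log2; each panel has its own scale) in each liver, by diet group, with the mean and SD over livers. The 6 HQR livers of the Cyp3a panel lie between 3.20 and 4.41 and overlap the HFD livers, at 3.74 to 5.43. In the Cyp2j panel the HQ and SD livers all but touch, at 1.776 for the highest HQ liver and 1.78 for the lowest SD liver. That gap was seen after the fact, is small beside the spread within groups, and was not tested.

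The Cyp3a genes include Cyp3a11, the main drug-oxidising Cyp3a of adult mouse liver, and Cyp3a16, Cyp3a41a and Cyp3a44, known from fetal or female liver. All 6 were below HFD in HQR livers (median -0.63) and in HQ livers (median -0.20), and 4 of 6 were in HR livers. Cyp3a16 measured between 0.92 and 2.90 in HQR livers, with a median of 2.10, against 1.87 to 4.17 in HFD livers, with a median of 2.83. Its HQR minus HFD difference was -0.81 ± 0.37 (adjusted p = 0.987), and the difference lay between -1.78 and 0.19 on the 4 slides that held both groups. Without HFD replicate 3 the Cyp3a16 difference was -0.56, with its unadjusted p then over 0.05. Cyp3a11 measured between 1.52 and 2.52 in HQR livers, with a median of 2.01, against 1.496 to 3.52 in HFD livers, with a median of 2.65, a difference of -0.59 ± 0.30 (adjusted p = 0.987) that was -0.40 without HFD replicate 3.

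Against SD livers, 6 of 6 Cyp3a genes were lower in HQR livers, 4 of them with an unadjusted p under 0.05, where 6 of 36 members and 6.43% of all genes met that value (3.37% with lower levels). Leaving out 1 array moved that count of 6 to 2, without SD replicate 2 or HQR replicate 1, to 3, without SD replicate 4 or HQR replicate 6, and to 9, without SD replicate 1 or HQR replicate 2. Cyp3a11 differed by -0.80 ± 0.32 (adjusted p = 0.594), Cyp3a25 by -0.76 ± 0.33 (adjusted p = 0.698), Cyp3a16 by -0.90 ± 0.39 (adjusted p = 0.702) and Cyp3a44 by -0.84 ± 0.38 (adjusted p = 0.733). Within the 3 slides that held both groups, Cyp3a11 lay between -1.18 and 0.14, Cyp3a25 between -1.72 and -0.09, Cyp3a16 between -1.87 and 0.62 and Cyp3a44 between -1.69 and 0.49. Single livers stood out across the subfamily: HFD replicate 3 was the highest of its group for Cyp3a11 (3.52), Cyp3a16 (4.17), Cyp3a41a (8.41) and Cyp3a44 (4.51), and HQR replicate 1 was the lowest of its group for the same genes (1.52, 0.92, 5.13 and 1.72). The Cyp3a44 probe used here was well above background on 28 of 28 arrays, but the second Cyp3a44 probe was on 0 of 28, so signal from another Cyp3a transcript in the first probe was not tested. Cyp3a13, Cyp3a25 and Cyp3a41a averaged 3.29, 7.57 and 7.26 in HQ, 3.51, 7.68 and 7.12 in HR, 3.26, 7.40 and 6.68 in HQR, and 3.51, 7.61 and 7.37 in HFD livers.

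The Cyp2d genes include the male-biased testosterone hydroxylase Cyp2d9 of mouse liver, and their human relative oxidises many drugs. The median difference from HFD was -0.03 in HQ, -0.21 in HR and -0.25 in HQR, with 5, 7 and 6 of 7 genes below 0. Cyp2d34 had the only unadjusted p under 0.05 among them, with 4.46, 2.85, 3.87, 4.03 and 4.12 in HQ livers against 4.01 to 4.74 in HFD livers, a difference of -0.46 ± 0.21 (adjusted p = 1) that was -0.21 without HQ replicate 2. Cyp2d9, Cyp2d10, Cyp2d22 and Cyp2d26 averaged 7.60, 8.28, 3.40 and 8.68 in HQ, 7.46, 8.25, 3.16 and 8.49 in HR, 7.35, 8.05, 3.30 and 8.37 in HQR, and 7.59, 8.31, 3.44 and 8.69 in HFD livers. The other Cyp2d genes, Cyp2d12 and Cyp2d13, averaged 3.51 and 6.64 in HQ, 3.51 and 6.23 in HR, 3.28 and 6.51 in HQR, and 3.69 and 6.50 in HFD livers. The probes of Cyp2d13 and Cyp2d26 share a run of 16 bases.

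Of the single-member subfamilies, Cyp2e1, which oxidises ethanol and ketone bodies, averaged 5.44 ± 0.40 in HQ, 5.46 ± 0.55 in HR, 5.14 ± 0.28 in HQR, 5.41 ± 0.57 in HFD and 5.63 ± 0.60 in SD livers. Cyp2f2, known for naphthalene oxidation in the lung, averaged 7.32 ± 0.41 in HQ, 7.24 ± 0.29 in HR, 7.40 ± 0.17 in HQR, 7.16 ± 0.32 in HFD and 7.20 ± 0.31 in SD livers. Neither gene had an unadjusted p under 0.05 in any of the 10 comparisons as reported. With slide as a block Cyp2f2 was 0.32 above HFD and 0.32 above SD in HQR livers, with unadjusted limma p of 0.0194 and 0.0275 (adjusted p = 1 and 0.418). Cyp2g1, best known from the olfactory mucosa, lay between -2.69 and -0.32 in HR livers, with a median of -1.19, against -1.02 to -0.02 in HFD livers, with a median of -0.40, a difference of -1.04 ± 0.50 (adjusted p = 1). Over the settings tried the Cyp2g1 difference ran between -1.27 and -0.48, the value with normexp background correction, and its unadjusted p was over 0.05 in 8 of the 12 omissions of 1 array. The second Cyp2g1 probe, well above background on 5 of 28 arrays, gave 0.02.

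**Figure D4:**
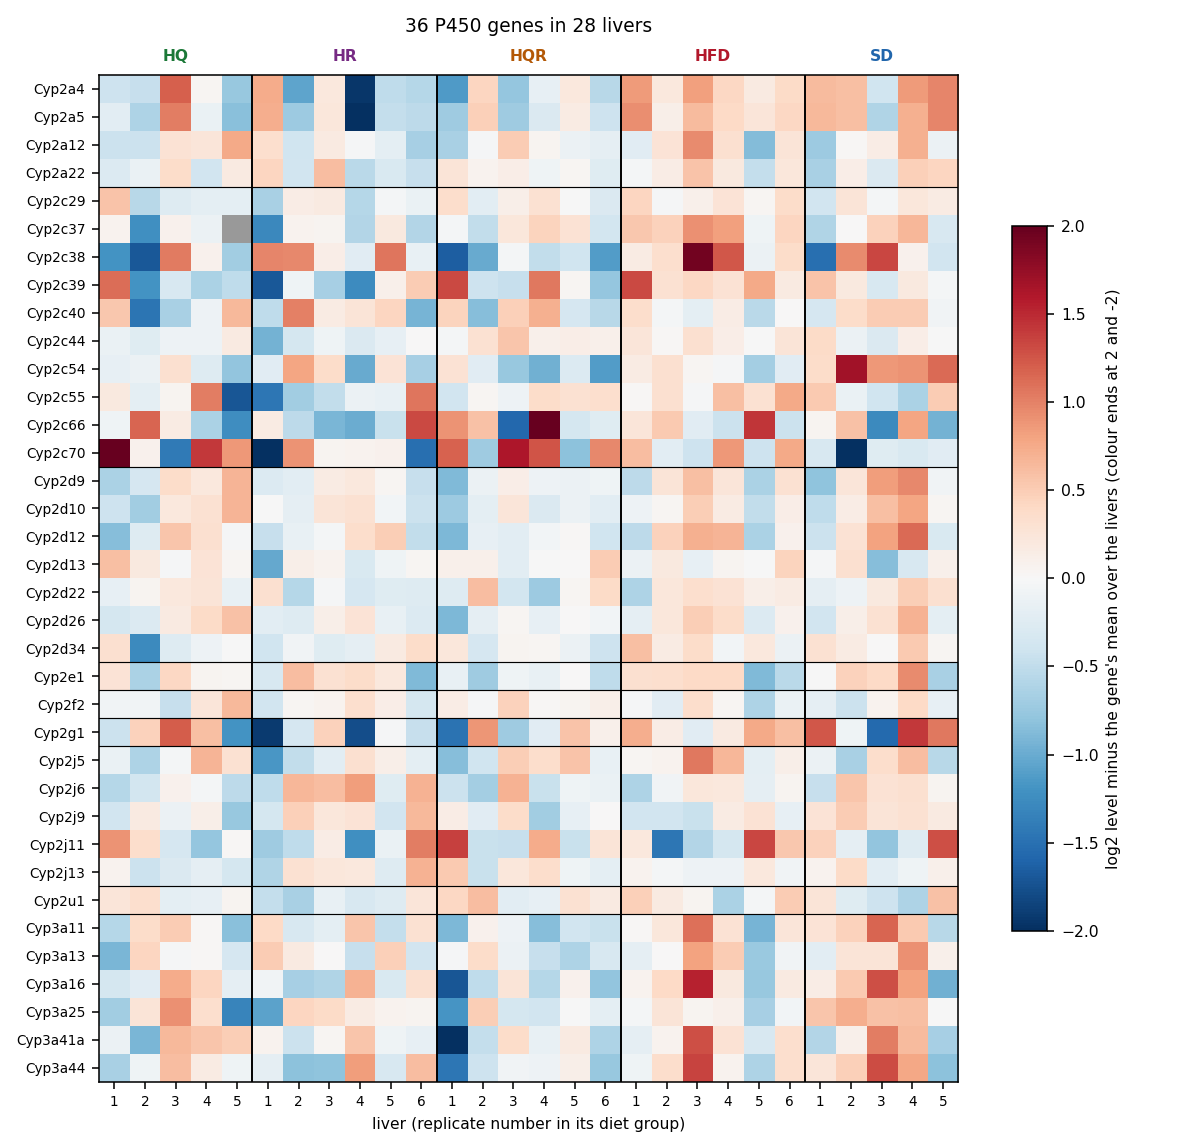
Level of the 36 tested genes (rows, by subfamily) in the 28 livers (columns, by diet group and replicate number), as the difference from the gene's mean over the livers on the log2 scale; grey marks the left-out Cyp2c37 spot of HQ replicate 5. HR replicate 1 and HQR replicate 1 are the lowest of the 28 livers for 9 and 7 genes, and HFD replicate 3 and SD replicate 4 the highest for 7 genes each.

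The supplements were then compared with each other. HQ and HR carried the same dose of 4 g per kg, and HQR carried 2 g per kg of each compound. In HQ against HR livers 1 of 36 members had an unadjusted p under 0.05 (1.29% of all genes), in HQR against HQ 0 of 36 (1.43%) and in HQR against HR 4 of 36 (2.77%), and none passed the adjusted p, as 0% of all genes did in these 3 comparisons. The one member of HQ against HR, lower in HQ as 0.659% of all genes were, was Cyp2j6, a Cyp2j epoxygenase, with 0.91, 1.12, 1.57, 1.45 and 0.96 in HQ livers against 0.98 to 2.31 with a median of 2.12 in HR livers, a difference of -0.62 with a 95% interval from -1.16 to -0.09. With 1 array left out the count for HQ against HR ran between 0, without HQ replicate 1, and 4, without HQ replicate 3. Over the 36 members the 95% intervals for HQ minus HR reached a median of 0.62 to either side, and for 26 of them the interval lay within a 2-fold difference either way. In HQR against HR livers Cyp2c44 differed by 0.50 ± 0.15, Cyp2u1, a fatty acid hydroxylase, by 0.46 ± 0.22, Cyp2c38 by -1.25 ± 0.46 and Cyp2j6 by -0.52 ± 0.25 (SE; adjusted p = 1 for each). With slide as a block the Cyp2u1 difference was 0.16 and that of Cyp2c38 -0.71. Cyp2j5, an epoxygenase of kidney and liver, averaged 4.11 in HQ, 3.80 in HR, 4.07 in HQR and 4.36 in HFD livers. Cyp2j11 and Cyp2j13 averaged -2.08 and 0.58 in HQ, -2.35 and 0.92 in HR, -1.94 and 0.88 in HQR, and -2.16 and 0.82 in HFD livers.

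Genes known to act with these enzymes were read from the same fit. Of 25 regulators of P450 genes, among them CAR, PXR, Hnf4a and Ahr, 19 were below HFD in HQ, 19 in HR and 21 in HQR livers, with medians of -0.15, -0.21 and -0.23, and none passed the adjusted p. CAR (Nr1i3) averaged 4.77 in HQ, 4.89 in HR, 4.84 in HQR, 5.00 in HFD and 5.26 in SD livers. Of 17 genes for electron partners and haem supply, 13, 12 and 13 were below HFD, again with none past the adjusted p. The shares of all genes below HFD were 50.9% in HQ, 47.9% in HR and 41.6% in HQR livers. An unadjusted p under 0.05 with a lower level was met by 0, 1 and 0 regulators and by 1, 1 and 0 partner genes. Of 16 genes listed as targets of CAR and PXR outside these subfamilies, 2 passed in HFD against SD, Cyp2b9 and Cyp2b13. These 2 genes were higher by 5.97 and 4.83 in HFD livers (limma adjusted p = 3.21e-05 and 0.000132). Cyp2b10, on the same list, did not pass. It was dim, well above background on 9 arrays, and averaged -3.53 in HFD and -4.51 in SD livers. Whether CAR or PXR was more active in HFD livers was not tested. In HFD against SD, 8 of the 16 were above SD and 8 below, with a median of -0.02. An unadjusted p under 0.05 was met by Cyp2b9, Cyp2b13 and Gsta2 with higher levels, and by 3 targets with lower levels: the aldo-keto reductase Akr1b7 (-1.09), the transporter Slco1a4 (-1.50) and the stress gene Gadd45b (-1.68). Of all genes, 3.35% met that p in HFD against SD with higher levels and 2.8% with lower levels. Below HFD were 13 of the 16 in HQ, 11 in HR and 11 in HQR livers, with medians of -0.24, -0.13 and -0.28. There, 4, 3 and 3 of the 16 had an unadjusted p under 0.05 with lower levels, and 0 with higher levels. Among all genes 1.35%, 3.03% and 0.879% did with lower levels. Among the 7 tested members known as CAR or PXR targets, none passed in HFD against SD, and their median difference was -0.01. Below HFD were 7 of these members in HQ, 6 in HR and 7 in HQR livers, with medians of -0.32, -0.375 and -0.441. None passed the adjusted p there, and 1, 2 and 0 had an unadjusted p under 0.05 with lower levels. They are part of the member counts given above.

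Markers of other liver cells were read in the same comparisons with HFD. All 10 markers of the sinusoidal endothelium were above HFD in HQ and in HR livers and 9 of 10 in HQR livers, with medians of 0.36, 0.55 and 0.22, and 6 of them, led by Clec4g (0.83) and Lyve1 (0.97), had an unadjusted p under 0.05 in HR, as 1.89% of all genes had with higher levels. Of all genes 49.1% were above HFD in HQ, 52.1% in HR and 58.4% in HQR livers. Against SD, 10 of the 10 endothelial markers were above in HQ, 10 in HR, 7 in HQR and 6 in HFD livers. The shares of all genes above SD were 42%, 42.7%, 51.2% and 44.6%. An unadjusted p under 0.05 with a higher level than in SD was met by 1, 5, 1 and 0 of the 10. Of all genes, 1.92%, 2.91%, 3.06% and 3.35% met it. The mean level of the 10 endothelial markers lay between 1.65 and 1.94 in HR livers and between 0.40 and 1.72 in HFD livers. The 10 Kupffer cell markers were above HFD in 9, 10 and 9 cases in HQ, HR and HQR livers. Against SD they were above in 4, 8 and 4 cases in these groups, and in 3 cases in HFD livers. Of the 13 genes of the central vein zone, 10, 12 and 12 were below HFD in HQ, HR and HQR livers. Their medians were -0.19, -0.39 and -0.44. In the portal zone 9, 8 and 7 of 12 genes were below HFD, with medians of -0.25, -0.12 and -0.08. Among the 11 hepatocyte markers 6, 7 and 7 were, with medians of -0.003, -0.17 and -0.205. No gene of these lists passed the adjusted p in those comparisons, and their part in the lower P450 values was not tested.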

How the data were processed

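Liver RNA from 28 mice was hybridised to 1-colour Agilent arrays, 1 array per mouse, so p-values measure the spread between mice. As the reported fit had no slide term, that spread includes differences between slides. The processed signal intensity of each spot was background-subtracted by Feature Extraction, per the file headers. The deposited value table holds a score per probe, with a mean of 0 and an SD of 1 in each array. It correlated with the log2 processed signal at 1, its direction and centring thus being known, and served as an alternative, times 3.21.

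From the intensities, control and outlier spots were left out, log2 values were scaled to each array's 75th percentile, probes well above background on at least 5 arrays were kept (32078 of 41174), and the brightest probe stood for its gene. All groups were fitted together with limma 3.58.1 in R 4.3.3, with Benjamini-Hochberg adjustment over 21851 genes, two-sided, and the fit was tested on simulated data. Members and lists were chosen with earlier results of these data known. Named were the members with the 5 smallest p in HFD against SD and in each supplement against HFD, the brightest and dimmest of each subfamily, a set picked by role, and, chosen after their values were seen, those with an unadjusted p under 0.05 in other comparisons and the rest of the Cyp2d and Cyp2j genes. Same-numbered arrays deviated together in each of 5 pairs in HFD against SD alone (r 0.217 to 0.698). The labels do not pair the mice, so the fit as reported had no block, and the replicate number was tried as a block. In HFD against SD the replicate block left 0 members past the adjusted p and gave Cyp2c54 an adjusted p of 0.234. Slide, scan day, scaling, background correction, filter, probe choice, variance model and arrays used were varied. With slide as a random block the correlation within slides was 0.362. Genes past the adjusted p then rose from 25 to 81 in HFD against SD and from 11 to 108 in HQR against SD. Precision is limited by the number of arrays.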

Additional observations from a re-analysis of the deposited data

Results flagged for a closer look

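Dixon's test at the 95% level marked a single liver in 12 of 180 sets of 1 member in 1 diet group, where chance gives about 9, or 1 in 20.

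In 11 sets the liver was the lowest of its group. In the Cyp2a subfamily SD replicate 3 had a Cyp2a4 level of 6.01, with the nearest liver at 7.00, and a Cyp2a5 level of 7.04, with the nearest at 8.25. In the Cyp2c subfamily HQ replicate 2 had a Cyp2c37 level of 5.60, with the nearest at 6.71, and SD replicate 2 a Cyp2c70 level of 2.84, with the nearest at 5.00.

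Among the Cyp2d genes, HR replicate 1 had a Cyp2d13 level of 5.41 (nearest 6.12), HFD replicate 1 a Cyp2d22 level of 2.74 (nearest 3.46), and HQR replicate 1 a Cyp2d26 level of 7.67 (nearest 8.39) and a Cyp2d9 level of 6.66 (nearest 7.43). Cyp3a25 was marked in 3 groups, at 6.60 in HR replicate 1 (nearest 7.73), 7.00 in HFD replicate 5 (nearest 7.62) and 7.66 in SD replicate 5 (nearest 8.22). In the remaining set HQR replicate 3 had the highest Cyp2f2 level of its group, 7.73, with the nearest liver at 7.42.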

How the results depend on the processing

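The number of members past the adjusted p was 0 under every alternative run for the 9 comparisons other than HQR against SD. In HQR against SD it was 1, always Cyp2c54, with array weights, with an intensity trend and robust estimation, with the mean of all kept probes, with scan day as a block, with slide as a random block and with the strict filter on dim probes, and it ran between 0 and 1 when 1 array was left out (1 without HQR replicate 1 or without SD replicate 1). With the replicate block it was also 1, with a Cyp2c54 difference of -1.41 and an adjusted p of 0.0439, although the labels do not pair the mice. The block changed the number of members past the adjusted p in no other comparison. The F test over the 5 groups called 1 member with array weights. Over 26 settings the adjusted p of Cyp2c54 in HQR against SD ran from 0.00458 to 0.185, and the cause was not tested.

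Normexp background correction moved the median of all genes to 0.24 for HQ minus HFD, 0.17 for HR minus HFD and -0.14 for HFD minus SD. Under it the subfamily difference for HQ minus HFD was -0.39 for Cyp2d and -0.16 for Cyp2f, against -0.08 and 0.16 in the values reported, and the cause was not tested. The reported fit called no member, so there was no called value whose sign could change. Some small subfamily differences did change sign: that of Cyp2e for HQ minus HFD kept its sign in 17 of 26 settings. The members below HFD numbered between 23 and 32 in HQ, 24 and 32 in HR, and 24 and 31 in HQR over all settings, and those with an unadjusted p under 0.05 and a difference below 0 between 0 and 6, 4 and 8, and 1 and 10. For HFD minus SD the members below 0 numbered between 13 and 24, and the median took either sign (-0.07 to 0.05). The 95% intervals of that comparison reached a median of 0.61 to either side.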
